A study of Homo sapiens with 30 samples.

Results

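The 45 genes described here encode the machinery that copies DNA: origin licensing factors, the MCM2-7 helicase and its activators, the sliding clamp and its loader, the replicative polymerases and primase, Okazaki fragment enzymes, the single-strand binding protein RPA, enzymes of nucleotide supply, fork checkpoint and chromatin assembly factors, and the G1/S regulators E2F1, CCNE1 and CCNE2. Members were the rows whose gene name equals a name on the list. All 45 were found in both count tables, among 58288 genes in the first and 20073 in the second, and all 45 passed the filter on low counts, which left 19629 and 19399 genes for testing.

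Replication origins are licensed in G1, when the origin recognition complex, CDC6 and CDT1 load the MCM2-7 ring onto DNA. In S phase CDC45 and the GINS complex join the ring to form the active helicase, and polymerases epsilon, delta and alpha-primase then copy the strands with PCNA as the clamp. Most of these genes are transcribed around the G1/S transition under E2F factors, which cyclin E with CDK2 helps to release from the retinoblastoma protein.

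RNA was sequenced from UMUC1, a human bladder cancer cell line in which KDM6A, the gene of the histone H3K27 demethylase UTX, is mutated with loss of function. All cells carried stably expressed vectors, and each of 10 groups had 3 libraries from cells harvested on day 3. The first experiment used pSIN-puro as an empty vector (EV), with wild type UTX, or with UTX carrying H1146A and E1148A (HEAA). Its cells grew in full medium, which is MEM with 10% serum (EV_full, UTX_full, HEAA_full), or in sphere medium, which is MEM without serum but with B27 lacking vitamin A and 20 ng/ml each of the growth factors EGF and FGF2 (EV_sphere, UTX_sphere, HEAA_sphere). In the second, all cells were in full medium and carried pBabe-puro with wild type FGFR3 or FGFR3 S249C, a mutation found in bladder cancer, together with pCDH-blasticidin that was empty or held wild type UTX (EV_FGFR3WT, UTX_FGFR3WT, EV_FGFR3S249C, UTX_FGFR3S249C). The labels do not say whether replicates were separate cultures or how many clones a line held.

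Libraries of the first experiment held 23749352 to 40111234 counts, and those of the second 21672408 to 28290664. KDM6A was at 7.71 to 17.9 CPM (counts scaled to library size) in the EV libraries and at 568 to 957 CPM in those with UTX or HEAA; vector RNA and the cells' own RNA are counted together. FGFR3 was at 1194 to 1377 CPM with the wild type vector and 2198 to 2624 CPM with S249C. The epithelial genes EPCAM, KRT8 and UPK1B were present in every library (at least 131, 795 and 141 CPM). Others varied more in the first experiment, with KRT5 at 158 to 12850 CPM, KRT7 at 0.640 to 87.6 and UPK2 at 2.10 to 31.4. UPK3A was at 0 there. Of markers of other cells, 5 leukocyte genes summed to 0.346 to 3.09 CPM in the first experiment, led by CD14, and 4 of them to 2.83 to 10.8 CPM in the second, led by LYZ (1.69 to 7.49 CPM), with PTPRC at no more than 0.595 CPM. The fibroblast genes LUM (0.340 to 47.02 CPM) and COL1A1 (4.96 to 22.9 CPM) were present, while DCN and PDGFRA reached at most 0.157 and 0.0971 CPM in the first experiment. The endothelial genes PECAM1 and VWF reached at most 2.86 and 1.82 CPM. Across genes, every library correlated with the others of its group at 0.9936 or more, and those of UTX_FGFR3S249C correlated as highly with a library of another group. The 45 genes held 0.534% to 0.542% of all counts in EV_full and 0.311% to 0.318% in UTX_full, and no member had fewer than 94 counts in a library.

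The promoters of these genes were searched for short sequence words. Most members are known to be transcribed under E2F factors, so the word counts are not independent of the choice of members. RefSeq promoter windows (GRCh38.p14, from 250 bases before to 50 after the start) were at hand for 38 of the 45 members. The windows were searched on both strands for 4 words of the E2F core, which can overlap each other. These were TTCGCGC, next TTGGCGC, then TTCCCGC and finally TTGCCGC. At least 1 word was present for 31 of 38 members (81.6%), against 20.5% of protein-coding genes, 15.3% of all genes in the table and 6 of 22 mitosis genes (27.3%). The word TTTGAA of the CHR element, known from mitotic promoters, was in the window of 1 of 38 members (2.63%, RRM1), of 16 of 22 mitosis genes (72.7%) and of 15.8% of protein-coding genes. CCAAT was found for 23 of 38 members (60.5%), 86.4% of mitosis genes and 42.1% of protein-coding genes. A match is a run of letters and not a shown binding site, and no match says only that the letters are absent from the window.

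The 80 bases just before the start are printed for 9 members whose RNA values follow, 5′ to 3′ along the gene, with E2F core words of either strand in capitals. The windows lie at chr1:52404424-52404503 on the minus strand (ORC1), chr16:88803709-88803788 on the plus strand (CDT1), chr16:85688955-85689034 on the minus strand (GINS2), chr13:33818069-33818148 on the plus strand (RFC3), chr14:49688215-49688294 on the minus strand (POLE2), chr12:56752324-56752403 on the minus strand (PRIM1), chr18:657573-657652 on the plus strand (TYMS), chr20:33686386-33686465 on the minus strand (E2F1) and chr19:29811911-29811990 on the plus strand (CCNE1).
ORC1: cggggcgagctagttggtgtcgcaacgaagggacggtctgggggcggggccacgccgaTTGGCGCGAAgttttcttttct
CDT1: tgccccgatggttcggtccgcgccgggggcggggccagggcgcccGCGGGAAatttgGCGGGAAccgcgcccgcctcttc
GINS2: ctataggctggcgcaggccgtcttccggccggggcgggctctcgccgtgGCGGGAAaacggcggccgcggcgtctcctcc
RFC3: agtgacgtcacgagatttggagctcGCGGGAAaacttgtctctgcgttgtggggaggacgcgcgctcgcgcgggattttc
POLE2: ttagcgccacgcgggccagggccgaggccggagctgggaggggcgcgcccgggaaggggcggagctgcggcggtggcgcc
PRIM1: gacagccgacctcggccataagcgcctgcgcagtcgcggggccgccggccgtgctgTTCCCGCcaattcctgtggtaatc
TYMS: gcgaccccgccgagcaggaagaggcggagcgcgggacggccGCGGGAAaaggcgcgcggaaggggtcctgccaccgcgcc
E2F1: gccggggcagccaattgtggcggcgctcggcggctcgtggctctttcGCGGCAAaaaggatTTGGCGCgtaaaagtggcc
CCNE1: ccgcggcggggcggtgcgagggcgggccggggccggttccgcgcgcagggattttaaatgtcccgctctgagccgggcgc
ORC1, CDT1 and E2F1 each held 2 words in these 80 bases, GINS2, RFC3, PRIM1 and TYMS held 1, and POLE2 and CCNE1 held 0. In ORC1 the pair overlaps.

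Wild type UTX was first compared with EV in full medium. All 45 genes fell in UTX_full against EV_full, by 0.40 to 1.36 on the log2 scale with a median of -0.86, while the median of all genes tested was 0.04. Of all genes tested, 29.2% passed as lower and 28.4% as higher (edgeR quasi-likelihood test, Benjamini-Hochberg adjusted p under 0.05, which is the threshold throughout). For each of the 45 the 3 UTX_full libraries lay below the 3 EV_full libraries. How many of all genes lay apart in this way was not counted, here or below. Of 79 cytosolic ribosomal protein genes 77 were lower as well (median -0.57), and their part in the members' values was not tested. In bulk RNA, fewer cells in S phase and less of each RNA per cell cannot be told apart. Levels below are CPM in replicates 1, 2 and 3, and log2 fold changes are ± SE with 3 libraries per group.

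Origin licensing genes fell by a median of 1.16 on the log2 scale, 4 of 4. ORC1, the largest subunit of the origin recognition complex, was at 32.3, 32.6 and 33.7 CPM in EV_full and 15.7, 14.4 and 14.2 in UTX_full (log2 fold change -1.15 ± 0.06, adjusted p = 5.26e-13). CDT1, which brings the MCM ring to origins, was at 93.9, 95.9 and 98.3 against 41.9, 43.3 and 40.5 CPM (log2 fold change -1.20 ± 0.05, adjusted p = 8.28e-15). For both genes every UTX_full library lay below the lowest EV_full library. CDC6, the ATPase that works with ORC, fell by 1.18 and ORC6, the smallest ORC subunit, by 0.67.

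The 6 subunits of the MCM2-7 helicase fell by a median of 1.04 on the log2 scale, from -0.79 for MCM2 to -1.26 for MCM6. MCM2 stood at 202, 215 and 217 CPM in EV_full and 126, 123 and 117 in UTX_full (log2 fold change -0.79 ± 0.05, adjusted p = 2.48e-12). MCM5 was at 227, 229.8 and 233 against 114, 114 and 108 CPM (log2 fold change -1.04 ± 0.05, adjusted p = 3.77e-13). MCM6 was at 172, 178 and 172 against 74.8, 73.8 and 69.7 CPM (log2 fold change -1.26 ± 0.04, adjusted p = 4.54e-16). For all 6 subunits every UTX_full library lay below EV_full. Differences in size between genes were not tested, here or below.

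Helicase activation genes fell by a median of 0.90, 6 of 6. CDC45, a part of the active helicase, was at 107, 106 and 108 CPM in EV_full and 56.9, 56.2 and 57.4 in UTX_full (log2 fold change -0.91 ± 0.04, adjusted p = 3.08e-14). GINS2, a GINS subunit, was at 69.5, 69.2 and 72.1 against 27.2, 29.4 and 27.8 CPM (log2 fold change -1.32 ± 0.05, adjusted p = 5.68e-16), the second-largest fall of the 45. Of the other GINS subunits, GINS1 fell by 0.88, GINS3 by 0.88 and GINS4 by 0.62. MCM10, which helps to start the helicase, fell by 1.21.

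Clamp and clamp loader genes fell by a median of 0.75. PCNA, the sliding clamp, was at 469, 473 and 475 CPM in EV_full and 287, 283 and 258 in UTX_full (log2 fold change -0.78 ± 0.04, adjusted p = 1.68e-12). RFC3, a subunit of the clamp loader, was at 84.7, 83.6 and 84.2 against 52.4, 49.6 and 47.9 CPM (log2 fold change -0.75 ± 0.04, adjusted p = 4.84e-12). RFC2 changed most in this group (-1.04) and RFC4 least (-0.66).

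The polymerases and primase fell by a median of 0.76, 8 of 8. POLE2, an accessory subunit of polymerase epsilon, was at 16.01, 15.8 and 15.4 CPM in EV_full and 7.64, 7.44 and 6.69 in UTX_full (log2 fold change -1.11 ± 0.07, adjusted p = 2.16e-11). PRIM1, the catalytic subunit of primase, was at 49.8, 49.04 and 52.5 against 25.7, 25.1 and 22.6 CPM (log2 fold change -1.05 ± 0.05, adjusted p = 5.18e-13). The polymerase delta catalytic subunit POLD1 fell by 1.03 and its accessory subunit POLD3 by 0.55, and the epsilon catalytic subunit POLE fell by 0.64.

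Enzymes of Okazaki fragment maturation were also lower. FEN1, the flap endonuclease, was at 132, 131 and 137 CPM in EV_full and 69.8, 70.5 and 67.1 in UTX_full (log2 fold change -0.94 ± 0.05, adjusted p = 2.61e-13). LIG1, the ligase that seals the fragments, was at 91.6, 96.1 and 96.5 against 71.4, 72.2 and 71.5 CPM (log2 fold change -0.40 ± 0.04, adjusted p = 5.75e-09). Neither gene overlapped between the groups. RPA genes fell by a median of 0.60, and RPA2, the middle subunit, was at 33.2, 34.7 and 38.4 against 24.1, 24.3 and 22.1 CPM (log2 fold change -0.60 ± 0.05, adjusted p = 2.48e-09).

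Nucleotide supply had the smallest median fall of the 10 roles, 0.48 on the log2 scale. RRM2, the small subunit of ribonucleotide reductase, was at 253, 250.4 and 262 CPM in EV_full and 201, 193 and 185 in UTX_full (log2 fold change -0.40 ± 0.04, adjusted p = 1.96e-08). TYMS, thymidylate synthase, was at 92.5, 95.9 and 93.4 against 70.6, 68.8 and 65.5 CPM (log2 fold change -0.46 ± 0.04, adjusted p = 8.31e-10). RRM2, LIG1 and RPA1 (-0.40 each) were the least changed of all members, and for each the 3 UTX_full libraries still lay below the 3 EV_full libraries.

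Fork checkpoint and chromatin genes fell by a median of 0.96. CLSPN, which relays the ATR signal to CHK1, was at 33.8, 33.5 and 31.1 CPM in EV_full and 16.7, 14.99 and 16.2 in UTX_full (log2 fold change -1.03 ± 0.06, adjusted p = 1.32e-12). UHRF1, which recruits the maintenance DNA methyltransferase, was at 149, 146 and 149.7 against 75.5, 70.5 and 68.1 CPM (log2 fold change -1.05 ± 0.05, adjusted p = 5.88e-14). Each lay lower in every UTX_full library. The histone chaperone subunits CHAF1A and CHAF1B fell by 0.82 and 0.89.

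All G1/S regulators on the list were lower too. E2F1, the transcription factor, was at 45.8, 48.01 and 48.2 CPM in EV_full and 25.2, 24.5 and 28.2 in UTX_full (log2 fold change -0.86 ± 0.06, adjusted p = 5.28e-11). CCNE1, cyclin E1, was at 15.6, 15.3 and 14.6 against 6.02, 6.04 and 5.66 CPM (log2 fold change -1.36 ± 0.08, adjusted p = 1.67e-12), the largest fall of the 45. CCNE2, cyclin E2, was at 31.9, 35.1 and 30.9 against 18.9, 18.5 and 18.1 CPM (log2 fold change -0.82 ± 0.05, adjusted p = 1.06e-11). None of these 3 genes overlapped between the groups.

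**Figure D1:**
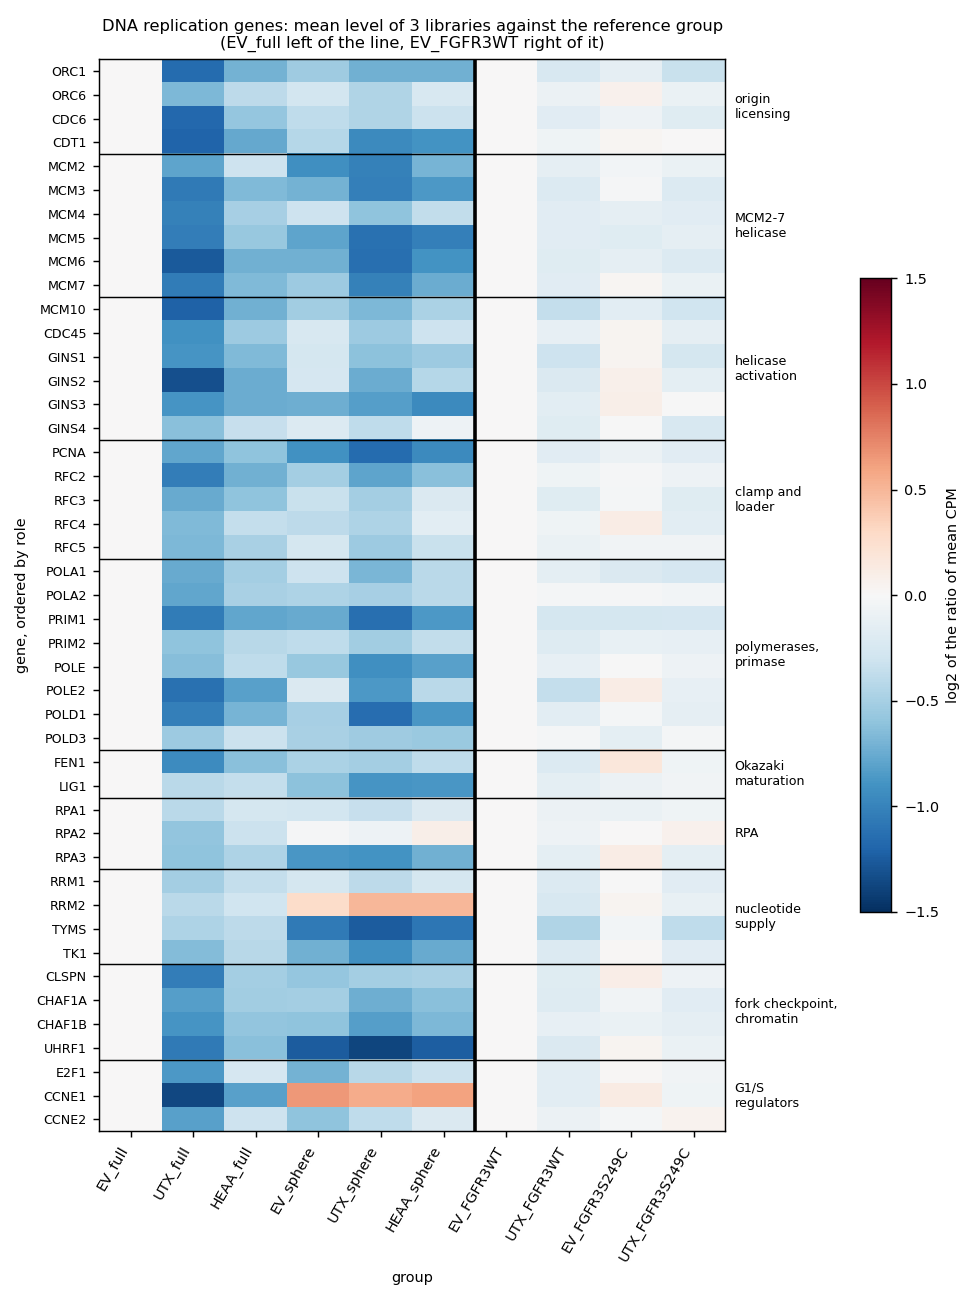
Log2 of the ratio of the mean CPM of 3 libraries to the reference group (color) for 45 genes (vertical axis, ordered by role) in 10 groups (horizontal axis), with EV_full as reference left of the heavy line and EV_FGFR3WT right of it. UTX_full is blue for all 45 genes, CCNE1 and RRM2 are red in sphere medium, and the second experiment is pale.

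The HEAA comparison in full medium addressed a UTX with H1146A and E1148A. All 45 members also fell in HEAA_full against EV_full, by a median of 0.53 on the log2 scale, where 25.3% of all genes passed as lower and 23.2% as higher. The largest falls were CCNE1 (-0.81), POLE2 (-0.81) and PRIM1 (-0.78), and the smallest were E2F1 (-0.26) and RPA1 (-0.26). CCNE1 was at 8.83, 8.45 and 8.55 CPM in HEAA_full, between EV_full and UTX_full. E2F1 was at 37.9, 42.7 and 38.2 CPM, closer to EV_full than to UTX_full. Both comparisons with EV_full use the same 3 control libraries, so their falls are not independent.

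UTX_full against HEAA_full compared the cells with each protein directly. KDM6A RNA was at 568 to 593 CPM in UTX_full and 687 to 702 CPM in HEAA_full. Its part in the members' values was not tested. Members were lower with wild type UTX for 40 of 45 (median -0.30) and higher for 0, against 12.4% lower and 8.95% higher over all genes. Ranked by size, E2F1 (-0.61 ± 0.06, adjusted p = 4.26e-07), CDC6 (-0.59 ± 0.04, adjusted p = 4.98e-10) and GINS2 (-0.58 ± 0.05, adjusted p = 1.72e-08) differed most in edgeR. CDC6 was at 43.7, 41.6 and 41.7 CPM in UTX_full and 63.5, 63.98 and 64.5 in HEAA_full, with no overlap. The licensing genes, the 6 MCM subunits, the clamp and its loader, the polymerases, the fork checkpoint and chromatin genes and the G1/S regulators were lower throughout. The 5 genes that did not pass were GINS3 (-0.14), RPA3 (-0.14), RRM2 (-0.10), TYMS (-0.07) and LIG1 (-0.05), among them the nucleotide enzymes RRM2 and TYMS.

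Sphere medium with the empty vector gave lower levels of most members as well. In EV_sphere against EV_full 42 members fell and 2 rose, with a median of -0.50, where 32.4% of all genes passed as lower and 33.1% as higher. With library totals in place of TMM factors the all-gene median moved from -0.03 to -0.21 and the share of calls that were higher from 50.6% to 34.9%, while 43 members fell and 2 rose. UHRF1 was at 64.7, 57.1 and 64.97 CPM in EV_sphere (log2 fold change -1.25 ± 0.05, adjusted p = 9.18e-16). TYMS was at 47.01, 43.5 and 45.1 CPM (log2 fold change -1.06 ± 0.04, adjusted p = 4.49e-16). MCM2 was at 115, 105 and 114 CPM (log2 fold change -0.92 ± 0.05, adjusted p = 7.19e-14). All 3 lay below every EV_full library.

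The genes that rose were CCNE1, at 23.4, 23.6 and 24.7 CPM (log2 fold change 0.66 ± 0.06, adjusted p = 4.75e-09), and RRM2, at 322, 294 and 312 CPM (log2 fold change 0.28 ± 0.04, adjusted p = 3.01e-06). Neither overlapped with EV_full. CCNE2, the other cyclin E, moved the opposite way from CCNE1 (log2 fold change -0.61 ± 0.05, adjusted p = 5.3e-10), and the large subunit of the reductase, RRM1, moved the opposite way from RRM2 (log2 fold change -0.26 ± 0.04, adjusted p = 2.48e-06). RPA2 did not pass (log2 fold change -0.02 ± 0.05, adjusted p = 0.735), while RPA3, in the same complex, fell by 0.87. In this experiment RNA of the mitochondrial genome made up 4.43% to 5.69% of counts in full medium and 2.61% to 3.18% in sphere medium. The 13 epithelial markers summed to 8122 to 8478 CPM in EV_full and 23520 to 24910 CPM in EV_sphere. Of them KRT5 had the highest mean over all libraries of this experiment. The 6 fibroblast markers summed to 43.9 to 53.4 CPM in EV_full and 11.9 to 13.3 CPM in EV_sphere. The part of these RNAs in the members' values was not tested.

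**Figure D2:**
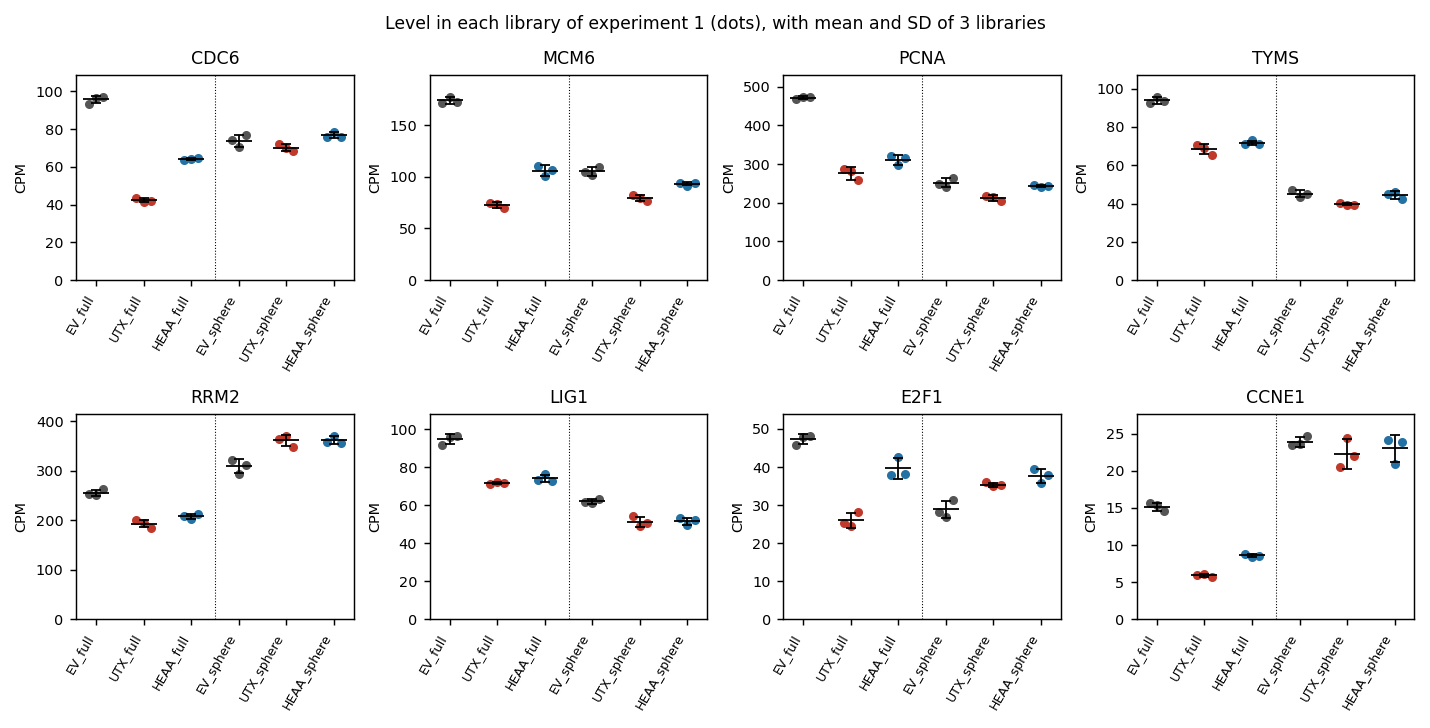
CPM (vertical axis, from 0) of 8 genes in the 18 libraries of the first experiment (dots, by group on the horizontal axis), with mean and SD of 3 libraries in black. UTX_full lies below EV_full in each panel, TYMS and LIG1 are lower in all sphere groups than in all full medium groups, and CCNE1 and RRM2 are higher in all sphere groups.

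Within sphere medium the comparison of wild type UTX with EV gave falls for part of the members. In UTX_sphere against EV_sphere 29 fell, 3 rose and 13 did not pass (median -0.19, against 25.6% lower and 22.8% higher over all genes). With library totals in place of TMM factors the all-gene median moved from -0.01 to 0.10, 19 fell and 4 rose, and the share of all calls that were higher went from 47.1% to 64.1%. POLE2 was at 13.1, 13.3 and 14.4 CPM in EV_sphere and 8.63, 8.37 and 8.95 in UTX_sphere (log2 fold change -0.65 ± 0.08, adjusted p = 2.39e-07). POLD1 was at 74.6, 64.8 and 66.9 against 45.3, 43.3 and 42.9 CPM (log2 fold change -0.65 ± 0.06, adjusted p = 2.07e-09), and CDT1 fell by 0.52. Neither polymerase subunit overlapped between the groups.

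Against this majority, E2F1 rose from 28.2, 26.97 and 31.4 to 35.96, 34.96 and 35.2 CPM (log2 fold change 0.29 ± 0.06, adjusted p = 0.000482). CCNE2 rose by 0.23 and RRM2 by 0.22 on the log2 scale. For E2F1 every UTX_full library lay below EV_full, and every UTX_sphere library lay above EV_sphere. Of 79 ribosomal protein genes 77 were lower in this comparison (median -0.50), and their part in the members' values was not tested. By role, 5 of 6 MCM subunits, 5 of 6 helicase activation genes and 6 of 8 polymerase genes fell, while 0 of 3 RPA genes passed.

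HEAA in sphere medium gave calls in both directions, at shares of the members near those over all genes. In HEAA_sphere against EV_sphere 12 members fell, 7 rose and 26 did not pass (median -0.05, against 21.5% lower and 19.9% higher over all genes). This balance depended on the scaling: with library totals 7 fell and 18 rose, the members' median was 0.05, and the share of all calls that were higher went from 48.1% to 67.4%. The largest falls were CDT1 (-0.45), POLD1 (-0.38) and GINS1 (-0.28). E2F1 (0.39), CCNE2 (0.38), RFC4 (0.23), RRM2 (0.23), MCM2 (0.22), RPA3 (0.15) and RFC3 (0.12) rose. E2F1 was at 39.5, 35.8 and 37.8 CPM in HEAA_sphere, above every EV_sphere library. Ribosomal protein genes were lower for 74 of 79 (median -0.42), and their part was not tested. The 2 sphere comparisons share the EV_sphere libraries.

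Set directly against HEAA in sphere medium, wild type UTX again gave the lower levels. In UTX_sphere against HEAA_sphere 28 members were lower and 0 higher (median -0.16), against 11.2% lower and 8.87% higher over all genes. POLE2 (-0.45), GINS2 (-0.32) and MCM2 (-0.31) differed most. MCM2 was at 107, 106 and 101 CPM in UTX_sphere and 135, 124 and 131 in HEAA_sphere, with no overlap. All 5 clamp and loader genes and all 3 RPA genes passed. In this comparison 23 of 25 mitosis genes were lower as well (median -0.19). KDM6A RNA was at 849 to 878 CPM in UTX_sphere and 926 to 957 CPM in HEAA_sphere, and its part was not tested.

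**Figure D3:**
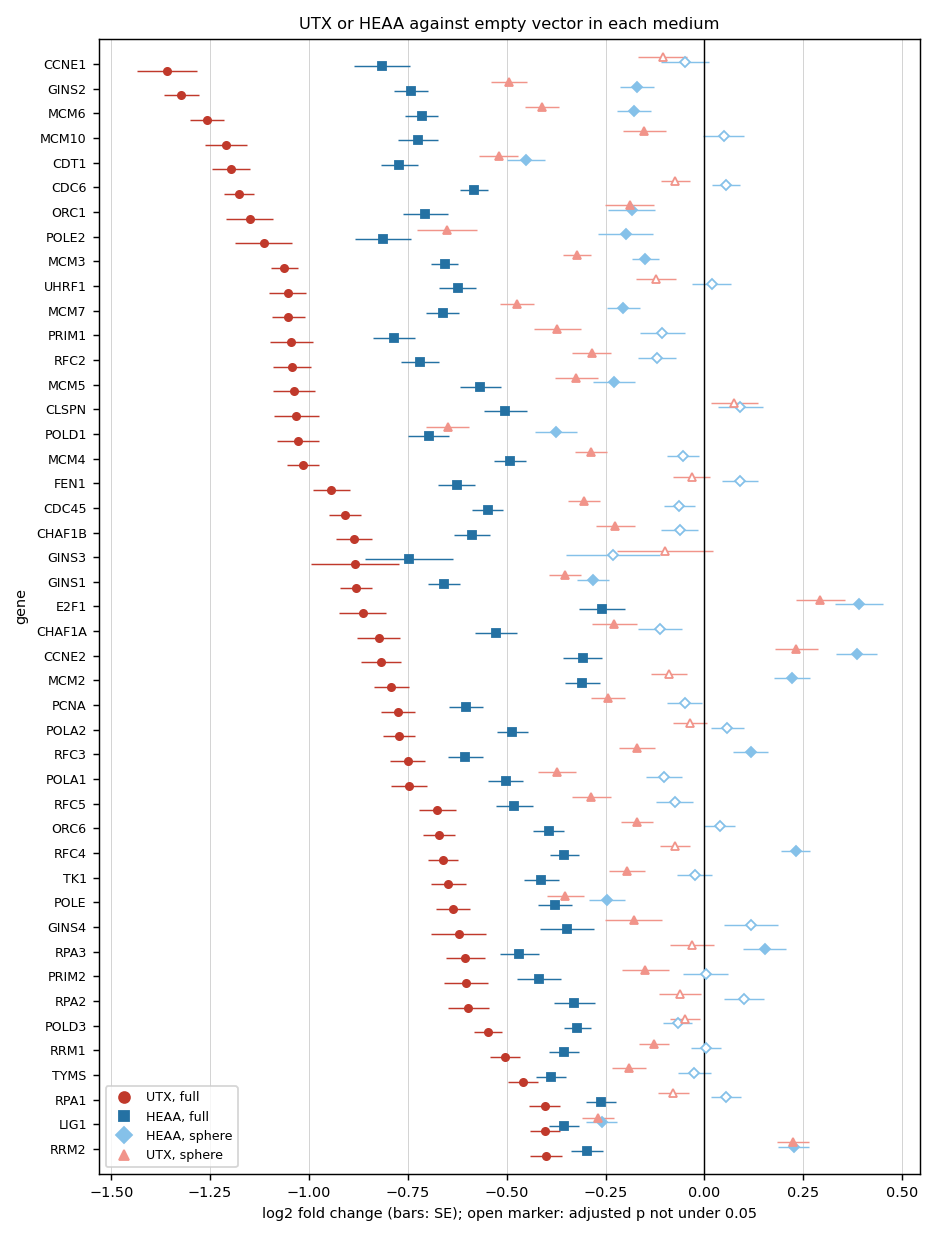
Log2 fold change (horizontal axis, bars show SE) of the 45 genes (vertical axis, ordered by UTX_full against EV_full) for UTX or HEAA against EV in each medium, with open markers where the adjusted p was not under 0.05. The full medium points of UTX lie furthest left, those of HEAA between, and the sphere medium points to the right of both.

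The difference between the media was tested as an interaction, the log2 fold change of UTX against EV in sphere medium minus that in full medium. It was above 0 and passed for 44 of 45 members (median 0.60), where 21.1% of all genes passed as higher and 16.2% as lower. CCNE1 (1.25 ± 0.10, adjusted p = 1.7e-09), E2F1 (1.16 ± 0.09, adjusted p = 8.12e-10) and CLSPN (1.11 ± 0.08, adjusted p = 6.63e-10) had the largest values in edgeR. LIG1 did not pass (0.13 ± 0.06, edgeR adjusted p = 0.0642), and its fall with UTX was 0.40 in full and 0.27 in sphere medium. For HEAA the same term passed for 43 members, all above 0 (median 0.52), against 18.7% higher and 14.3% lower over all genes. MCM10 (0.77), CCNE1 (0.77) and RFC3 (0.72) led, and LIG1 (0.09) and POLE (0.13) did not pass. Among 25 mitosis genes the UTX term passed as higher for 2 and as lower for 8 (3 and 5 with library totals). With TMM factors the HEAA term passed as higher for 6 of these genes and as lower for 1. Among 79 ribosomal protein genes the UTX term passed as higher for 8 and as lower for 1. There the HEAA term passed as higher for 36 and as lower for 0. KDM6A RNA was at 568 to 593 CPM in UTX_full and 849 to 878 CPM in UTX_sphere. With HEAA it was at 687 to 702 and 926 to 957 CPM, and its part in these terms was not tested.

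Within the UTX cells, sphere medium raised more members than it lowered. In UTX_sphere against UTX_full 25 rose, 8 fell and 12 did not pass (median 0.13), against 35.1% higher and 35.4% lower over all genes. CCNE1 went from 6.02, 6.04 and 5.66 to 20.4, 24.4 and 21.9 CPM (log2 fold change 1.91 ± 0.07, adjusted p = 1.2e-15). RRM2 went from 201, 193 and 185 to 365, 370.2 and 348 CPM (log2 fold change 0.90 ± 0.04, adjusted p = 1.45e-14), and CDC6 rose by 0.73. No library of one medium reached the other for CCNE1 or RRM2. TYMS (-0.79), LIG1 (-0.48) and PCNA (-0.38) fell most. With library totals 18 rose and 14 fell, and the members' median was 0.0014. Among members that passed with either scaling, the signs of MCM3, MCM6, MCM7, POLD3 and RRM1 turned from positive to negative.

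HEAA cells gave 17 members higher and 14 lower in HEAA_sphere against HEAA_full (median 0.04), against 34.4% higher and 36.3% lower over all genes. The members' shares were near those over all genes. CCNE1 (1.42), RRM2 (0.80) and RPA2 (0.41) rose most, and TYMS (-0.69), UHRF1 (-0.61) and LIG1 (-0.52) fell most. With library totals 10 rose and 22 fell, and the members' median was -0.09. Among members that passed with either scaling, MCM4, GINS1, RPA1 and RRM1 changed sign. TYMS was at 44.9, 46.1 and 42.3 CPM in HEAA_sphere against 71.1, 73.1 and 71.2 in HEAA_full, and LIG1 at 53.2, 49.6 and 52.2 against 73.2, 76.4 and 72.8. Both were lower in sphere than in full medium with EV, UTX and HEAA, without overlap in any of the 3.

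Seen over the libraries, the mean log2 level of the 45 genes relative to EV_full was -0.81 to -0.87 in UTX_full, -0.51 to -0.54 in HEAA_full, -0.42 to -0.53 in EV_sphere, -0.65 to -0.68 in UTX_sphere and -0.49 to -0.53 in HEAA_sphere. On this scale, with TMM factors, UTX_full was the lowest group and UTX_sphere the next, while HEAA_full, EV_sphere and HEAA_sphere overlapped. With library totals the means were -0.78 to -0.81 in UTX_full, -0.72 to -0.75 in UTX_sphere, -0.61 to -0.69 in EV_sphere, -0.59 to -0.61 in HEAA_sphere and -0.46 to -0.49 in HEAA_full, so that HEAA_full lay apart from the sphere groups. As a share of all counts, the 45 genes held 0.309% to 0.320% in UTX_sphere, which overlapped with UTX_full (0.311% to 0.318%).

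**Figure D4:**
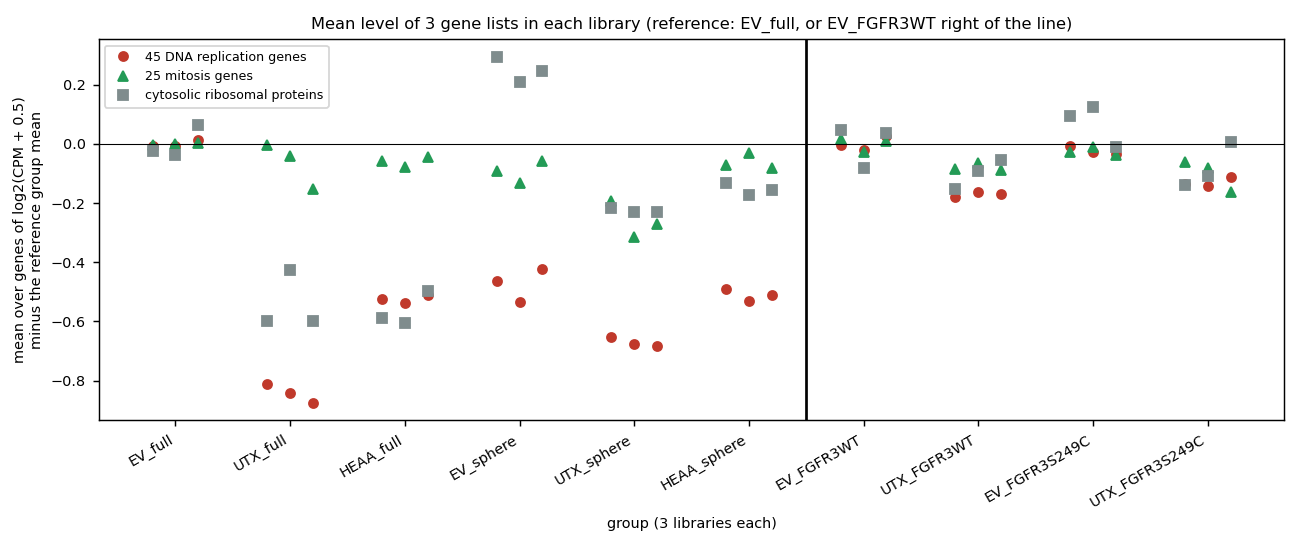
Mean over the genes of a list of log2(CPM + 0.5) minus the reference group mean (vertical axis) in each of 30 libraries (dots, by group on the horizontal axis), for the 45 replication genes, 25 mitosis genes and the cytosolic ribosomal proteins, with EV_full as reference left of the line and EV_FGFR3WT right of it. With the TMM factors used here the replication genes are lowest in UTX_full (-0.81 to -0.87), where the mitosis genes stay nearer to 0; with library totals UTX_full is at -0.78 to -0.81 and UTX_sphere at -0.72 to -0.75.

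The second experiment asked for the effect of UTX beside each FGFR3, in full medium. In UTX_FGFR3WT against EV_FGFR3WT 26 members fell and 0 rose (median -0.17), against 6.01% lower and 9.06% higher over all genes. TYMS was at 83.96, 81.6 and 82.3 CPM in EV_FGFR3WT and 60.6, 60.98 and 60.002 in UTX_FGFR3WT (log2 fold change -0.45 ± 0.04, adjusted p = 4.44e-06). POLE2 was at 14.3, 13.2 and 13.2 against 10.9, 10.3 and 10.5 CPM (log2 fold change -0.36 ± 0.07, adjusted p = 0.00203). MCM10 was at 44.9, 43.8 and 45.9 against 35.2, 35.6 and 34.3 CPM (log2 fold change -0.36 ± 0.06, adjusted p = 0.000527). No library overlapped for these 3 genes. The 4 leukocyte markers summed to 9.31 to 10.8 CPM in EV_FGFR3WT and 2.85 to 3.68 CPM in UTX_FGFR3WT, and their part was not tested. The count was 17 without EV_FGFR3WT replicate 1, 13 without its replicate 3, 14 without UTX_FGFR3WT replicate 1 and 16 without its replicate 3. Over all genes, leaving out each library in turn gave 2025 to 2464 calls, against 2924 with all libraries.

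With S249C, 17 members fell and 0 rose in UTX_FGFR3S249C against EV_FGFR3S249C (median -0.11), against 8.62% lower and 12.9% higher over all genes. With library totals 24 fell and the share of all calls that were higher went from 59.9% to 45.9%. TYMS was at 80.1, 82.3 and 77.6 against 61.7, 61.4 and 66.5 CPM (log2 fold change -0.34 ± 0.04, adjusted p = 4.73e-05). GINS1 was at 93.4, 83.4 and 81.6 against 65.4, 68.8 and 74.3 CPM (log2 fold change -0.31 ± 0.06, adjusted p = 0.00153), and RFC4 fell by 0.27. TYMS and GINS1 were lower in every UTX library. The count was 8 without EV_FGFR3S249C replicate 1, 11 without UTX_FGFR3S249C replicate 1 and 6 without its replicate 2. It was 18 without UTX_FGFR3S249C replicate 3. Over all genes, leaving out each library in turn gave 3106 to 4479 calls, against 4171 with all libraries. The 4479 calls also came without UTX_FGFR3S249C replicate 3. KDM6A RNA was at 941, 946 and 700 CPM in UTX_FGFR3S249C, lowest in replicate 3, and its part was not tested. In this comparison 22 of 28 RNAs of the mitochondrial genome were higher and 38 of 80 ribosomal protein genes lower, and their part in the members' values was not tested.

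TYMS, among the members that fell least in UTX_full, was the one that fell most beside either FGFR3. E2F1 did not pass in either pair (-0.15 and -0.08), nor did CCNE1 (-0.17 and -0.18) or CCNE2 (-0.08 and 0.08). The experiments differed in vectors, with FGFR3 added in every group of the second, and in library kit. A difference in size between them was therefore not tested.

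The comparison of S249C with wild type FGFR3 in the EV cells gave few calls, and the share of members that fell was near that over all genes. FGFR3 RNA was at 1227 to 1377 CPM in EV_FGFR3WT and 2198 to 2406 CPM in EV_FGFR3S249C. In the UTX cells it was at 1194 to 1288 CPM with wild type and 2538 to 2624 CPM with S249C. The part of this level in the members' values was not tested. In EV_FGFR3S249C against EV_FGFR3WT 3 fell and 0 rose, against 6.45% lower and 4.31% higher over all genes: PRIM1 (log2 fold change -0.26 ± 0.08, adjusted p = 0.0442), MCM5 (log2 fold change -0.19 ± 0.04, adjusted p = 0.0153) and MCM4 (log2 fold change -0.13 ± 0.04, adjusted p = 0.041). With library totals 1 member fell, and the share of all calls that were higher went from 40% to 50.1%. PRIM1 was at 29.2, 30.4 and 30.3 CPM with wild type and 22.02, 27.2 and 25.7 with S249C, without overlap. The count was 0 without EV_FGFR3WT replicate 2 or replicate 3 and 1 without EV_FGFR3WT replicate 1, EV_FGFR3S249C replicate 1 or EV_FGFR3S249C replicate 3. In UTX cells, UTX_FGFR3S249C against UTX_FGFR3WT gave 0 calls in edgeR, where 5 members had an unadjusted p under 0.05 and DESeq2 called 1, against 1.71% higher and 1.34% lower over all genes. The interaction of UTX with FGFR3 passed for 0 members in edgeR and in DESeq2, with 6 at an unadjusted p under 0.05, against 0.572% higher and 0.113% lower over all genes.

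**Figure D5:**
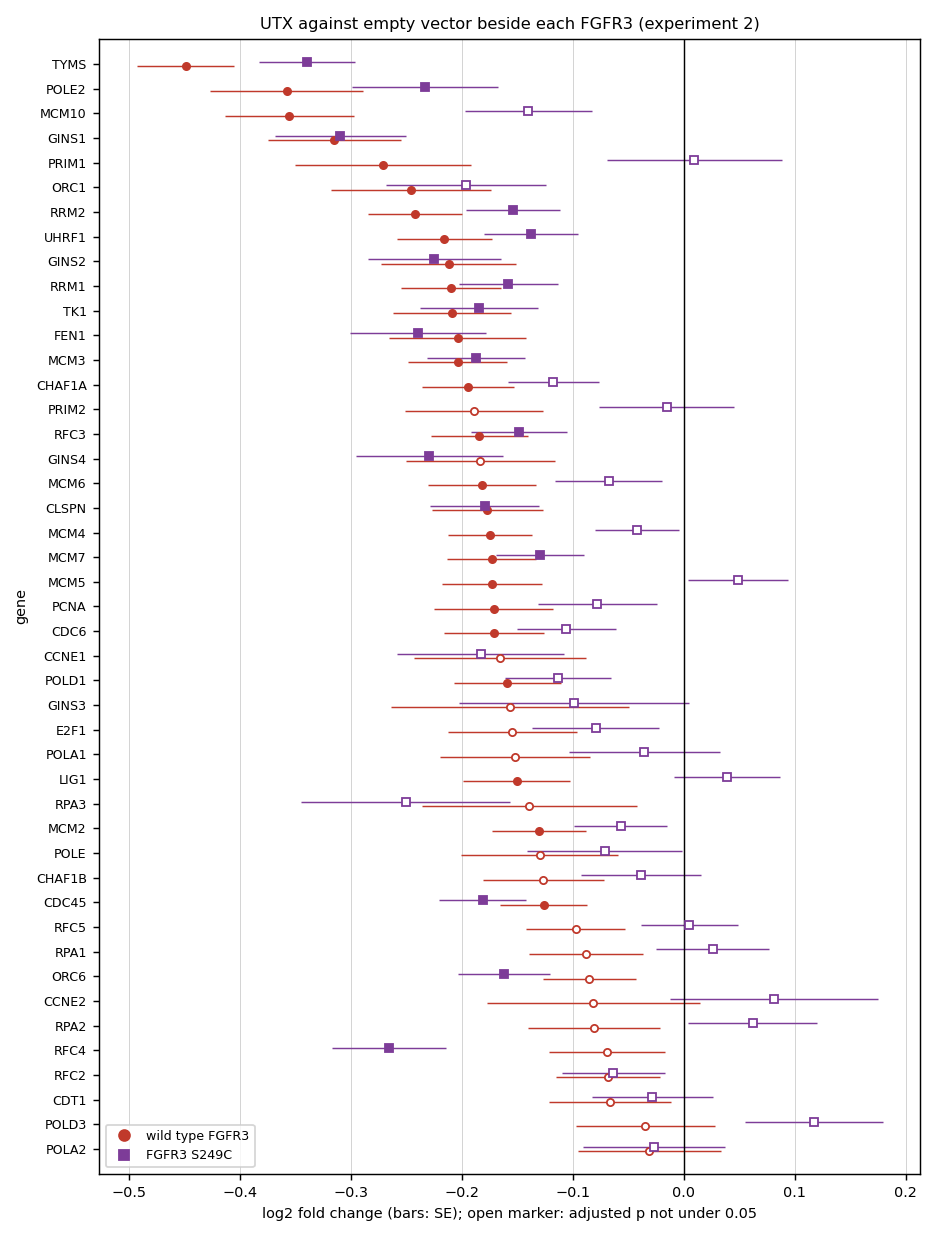
Log2 fold change of UTX against EV (horizontal axis, bars show SE) beside wild type FGFR3 and FGFR3 S249C for the 45 genes (vertical axis, ordered by the wild type values), with open markers where the adjusted p was not under 0.05. TYMS is furthest left for both, and all members lie at or above -0.45.

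Other genes of the pathway, from lists that hold none of the 45, moved as follows. Of 40 other replication factors 36 fell and 2 rose in UTX_full against EV_full (median -0.66), with CDCA7, a cofactor of the HELLS remodeller, at -1.72 and RRM2B, the p53-inducible reductase subunit, at 0.92. In UTX_sphere against EV_sphere 29 fell and 3 rose, with CDCA7 at -0.71 and POLD4, a small polymerase delta subunit, at 0.76. With library totals 19 fell and 5 rose there. In EV_sphere against EV_full 25 fell and 9 rose (31 and 4 with library totals), with CDCA7 at -1.39 and RRM2B at 0.55.

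Of 16 other E2F and pocket protein genes 13 fell and 1 rose in UTX_full, from E2F8 at -0.94 to TFDP2 at 0.48. In UTX_sphere 9 fell and 5 rose, from E2F2 (-0.60) to E2F5 (0.69), and in EV_sphere against EV_full 4 fell and 4 rose, from RBL1 (-0.62) to RB1 (0.54). The balance of this list depended on the scaling: with library totals 5 fell and 7 rose in UTX_sphere, and 10 fell and 2 rose in EV_sphere against EV_full. Among 13 tested genes for G1 cyclins, CDKs and CDK inhibitors, 6 rose and 5 fell in UTX_full, from CDC25A (-1.34), the phosphatase that activates CDK2, to CDKN1A (1.68), the inhibitor p21. CDKN1A was the largest rise of that list in UTX_sphere too (1.45), where CDKN2B was the largest fall (-0.67), and in EV_sphere against EV_full the extremes were CDKN2A (-1.34) and CCND3 (1.44).

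Of 25 mitosis genes 9 were lower and 4 higher in UTX_full against EV_full (median -0.03, or 0.02 with library totals, where 6 were lower and 5 higher), from MAD2L1 (-0.64) to AURKA (0.34). In UTX_sphere 17 fell and 3 rose (median -0.19; 12 and 4 with library totals), from KIF20A (-0.49) to ECT2 (0.27). In EV_sphere against EV_full 13 fell and 8 rose (17 and 2 with library totals), from CENPF (-0.69) to AURKA (0.50). Cytosolic ribosomal protein genes were lower against EV of the same medium for 77 of 79 in UTX_full, HEAA_full and UTX_sphere and for 74 in HEAA_sphere. In EV_sphere against EV_full 74 of 79 rose (32 rose and 5 fell with library totals).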

How the data were processed

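The deposited values are estimated counts per gene, whole numbers that the authors did not scale to library size. The submitters' processing notes name Salmon 0.8 and DESeq2, with hg19 and GRCh37 as builds. Not given in the sources used here are the summing of transcripts to genes and the annotation. Per the labels' protocols, RNA from RNeasy columns went into TruSeq libraries (first experiment) or NEBNext Ultra II RNA libraries (second).

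R 4.3.3 and edgeR 4.0.16 were used, with a separate fit for each experiment. Low genes were removed with filterByExpr, TMM factors scaled the libraries, and quasi-likelihood F tests on group means were adjusted by Benjamini-Hochberg over all genes tested, with a threshold of 0.05. There were 16 comparisons. Levels are CPM with TMM factors, and per-library list means use log2(CPM + 0.5). The SE was obtained by dividing the absolute log2 value by the root of F. Since the labels do not say that replicates were separate cultures, the spread behind each p-value is that between libraries and may be technical. POLA2 had a second row in the second table (1.34 to 9.29 CPM), which was not used. Promoter words were counted in RefSeq windows. Scripts were tested on simulated data.

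The members and gene lists were chosen with earlier results of these data known. Named genes were KDM6A, FGFR3, 20 members fixed by role, the 3 largest rises and falls among called members of each comparison, members against the majority, members not passing where 5 or fewer, and the extremes of each other list; further members are given by value within their role. Alternatives were DESeq2 1.42.0, DESeq2 size factors, library totals, no filter, only the groups compared, a replicate block and leaving out each library.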

Additional observations from a re-analysis of the deposited data

Results flagged for a closer look

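The change with UTX against EV differed between the media for 44 of the 45 members by an interaction term in edgeR, the sphere medium value being above the full medium value. For CCNE1 the difference was 1.25 on the log2 scale, for E2F1 1.16 and for CLSPN 1.11. For HEAA against EV the same term passed for 43 members, with 0.77 for MCM10, 0.77 for CCNE1 and 0.72 for RFC3. Without each of the 12 libraries in turn, 44 to 45 members passed for UTX and 43 to 45 for HEAA. Outlying single values within groups of 3 libraries were not tested.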

How the results depend on the processing

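Under every alternative run, all 45 members stayed lower and past the threshold in UTX_full and in HEAA_full against EV_full, and the interactions with medium kept all 44 (UTX) and 43 (HEAA) calls. Over single genes, comparisons and settings, 9019 values kept their call, which includes values past the threshold in neither fit, whatever their sign. With direction kept, 274 lost the threshold and 103 gained it. Direction was judged only where the main or the alternative fit passed, and 9 such values turned sign. With library totals only, UTX_sphere against UTX_full turned for MCM3 (-0.093), MCM6 (-0.0011), MCM7 (-0.088), POLD3 (-0.12) and RRM1 (-0.012), and HEAA_sphere against HEAA_full for MCM4 (-0.011), GINS1 (-0.018), RPA1 (-0.091) and RRM1 (-0.040); the scaling itself moved the all-gene median of these comparisons from -0.06 to -0.19 and from -0.07 to -0.21. With the same setting EV_FGFR3S249C against EV_FGFR3WT gave 1 member in place of 3, and its share of higher calls over all genes went from 40% to 50.1%. DESeq2 gave 1 in place of 0 for UTX_FGFR3S249C against UTX_FGFR3WT. Only the groups compared gave 6 in place of 17 for UTX_FGFR3S249C against EV_FGFR3S249C, and 29 in place of 26 for UTX_FGFR3WT against EV_FGFR3WT; the cause was not tested. Leaving out a library gave 13 to 18 members for UTX_FGFR3WT against EV_FGFR3WT (26 with all). It gave 6 to 18 for UTX_FGFR3S249C against EV_FGFR3S249C (17) and 0 to 2 for EV_FGFR3S249C against EV_FGFR3WT (3). The cause, including the part of the smaller number of libraries, was not tested. Over all genes, leaving out a library gave 2025 to 2464 calls for UTX_FGFR3WT against EV_FGFR3WT (2924 with all). For UTX_FGFR3S249C against EV_FGFR3S249C it gave 3106 to 4479 (4171). It gave 1124 to 1717 for EV_FGFR3S249C against EV_FGFR3WT (2088) and 291 to 535 for UTX_FGFR3S249C against UTX_FGFR3WT (591). For the interaction of UTX with FGFR3 it gave 58 to 248 (133). The 248, like the 18 and 4479 of UTX_FGFR3S249C against EV_FGFR3S249C, came without UTX_FGFR3S249C replicate 3.

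Deviations of libraries with the same replicate number had correlations from -0.10 to 0.07 (first experiment, median -0.02) and from -0.08 to 0.19 (second, median -0.02). With different numbers they ran from -0.09 to 0.09 (median 0.01) and from -0.15 to 0.11 (median 0.01). The labels do not say what a number shares, and the numbers were not taken as pairs in the main fit. With the replicate block 45 members passed in UTX_full against EV_full, 22 in UTX_FGFR3WT against EV_FGFR3WT and 2 in EV_FGFR3S249C against EV_FGFR3WT, and the interaction of UTX with FGFR3 went from 133 to 80 genes of all tested.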
